A study of Mus musculus with 10 samples.

Results

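Chemokines and their receptors made up 65 of the 49671 gene IDs counted in mouse skin. They were taken as the protein-coding genes of the GENCODE M21 annotation whose symbol is Ccl, Cxcl, Ccr or Cxcr followed by a digit, with Cx3cl1, Cx3cr1 and Ackr1 to Ackr4 added. The set holds 43 ligands, 18 receptors and 4 atypical receptors. Poly(A) RNA of whole skin was sequenced from 10 mice of B6;129S4-Npytm2Rpa/J aged 22 weeks, 5 of them homozygous for the mutant allele (NPYtet) and 5 their wildtype siblings (WT). By label, WT replicates 1 and 3 were female and 2, 4 and 5 male, while NPYtet replicates 1, 3 and 4 were female and 2 and 5 male. The labels name no agent given to either group and no cell type in which the altered Npy allele acts, and the study title speaks of Npy overexpression with signs of skin inflammation. Whether the libraries of a group came from separate litters is not given, so p-values measure the spread between these libraries.

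Chemokines are small secreted proteins that draw leukocytes along a gradient, and each works through G protein-coupled receptors on the cells it attracts. In broad terms, neutrophils follow Cxcl1 and its relatives through Cxcr2, monocytes follow Ccl2 and Ccl7 through Ccr2, and eosinophils follow Ccl11 and Ccl24 through Ccr3. Atypical receptors bind chemokines without the classical G protein signal and take them up or carry them across cells. Skin has its own pairs, such as keratinocyte-made Ccl27a with Ccr10 on skin-homing T cells.

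Npy, which checks the genotype labels, lay at 0.0941 to 2.86 CPM (reads relative to the scaled library size) in WT and at 96.2 to 485 CPM in NPYtet, with no overlap (log2 fold change 7.45, SE 0.62, edgeR adjusted p = 0.000109). Libraries held 23209405 to 53357695 reads. NPYtet replicate 5 had the fewest reads and the fewest genes with a read (19953), and mitochondrial genes took 9.26% of its reads against 1.86% to 3.03% elsewhere. NPYtet replicate 1 is labelled female, yet it had Y-linked Ddx3y at 37.2 CPM and Xist at 0.0492 CPM, where the other libraries labelled female had Ddx3y at 0 and Xist at 333 to 462 CPM. Keratinocyte markers (Krt5, Krt14, Krt1 and Krt10) were present in every library, at a summed 8113 to 56500 CPM. A list of 13 genes of the growing hair follicle summed to 314 to 25170 CPM in WT and to 26.3 to 11400 CPM in NPYtet, so libraries differed widely in hair stage genes within both genotypes. These genes also differed between the genotypes: all 13 were lower in NPYtet, with a median log2 fold change of -4.57. Of the 13, 4 had an edgeR unadjusted p under 0.05 (2.14% of all genes were lower at that threshold) and 0 were called.

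Chemokine and receptor genes together took 0.083% to 0.195% of a library's reads (24308 to 64033 reads). Of the 65 genes, 57 had a read in some library and 47 had enough for a test. The 7 copies on unplaced scaffolds held 7 reads in all, and Ccl21a, Ccl21b, Ccl21c and Ccl27b, which have near-identical copies in the genome, held at most 1 read each. Reads that match several copies equally may be missing from these counts, so nothing is said here of their level. By position, 14 genes lie on chromosome 11, 13 on 9 and 10 on 5, in GRCm38 coordinates. The monocyte and eosinophil ligands Ccl2, Ccl7, Ccl11 and Ccl12 lie side by side with Ccl8 at chr11:82035571-82116799, and the neutrophil ligands Cxcl5, Cxcl3, Cxcl15, Cxcl1 and Cxcl2 at chr5:90759360-90905938. The receptors Ccr1, Ccr3 and Ccr2 lie together at chr9:123962124-124113557. Another annotated gene overlaps 17 of the 65, among them Cxcl10, Cxcl16, Ackr1, Ackr4, Ccl27a and Ccl2, and the strand that was counted is not stated in the sources used here.

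A few ligands made most of the reads. Cxcl14, an epidermal and dermal chemokine without a settled receptor, took 24.1% of all reads of these genes and Cxcl12, the stromal ligand of Cxcr4, took 13.8%. Ccl8, a ligand of mouse Ccr8, followed with 9.69%, then Ccl6 with 7.94%, Ccl9 with 5.17% and Ccl27a with 4.80%, and 10 genes held 80.0%. Per exon length, Ccl8 was highest, with a mean over the 10 libraries of 319 RPKM (reads per kilobase of exon, scaled like CPM) and a range of 115 to 1113. Cxcl14 came next on that scale at 186 (91.0 to 332), then Ccl6 at 64.7 (19.0 to 147) and Ccl7 at 34.0 (5.58 to 155). The ranges of neighbours in this order overlap. Among receptors, Ccr2, the monocyte receptor, had the highest mean per length (5.97 RPKM), followed by Cxcr6 on effector T cells (3.97) and Cxcr4 (3.76). The atypical receptors Ackr1, found on venules and red cell precursors, and Ackr3, which takes up Cxcl12, stood above them at 20.7 and 18.4 RPKM.

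**Figure D1:**
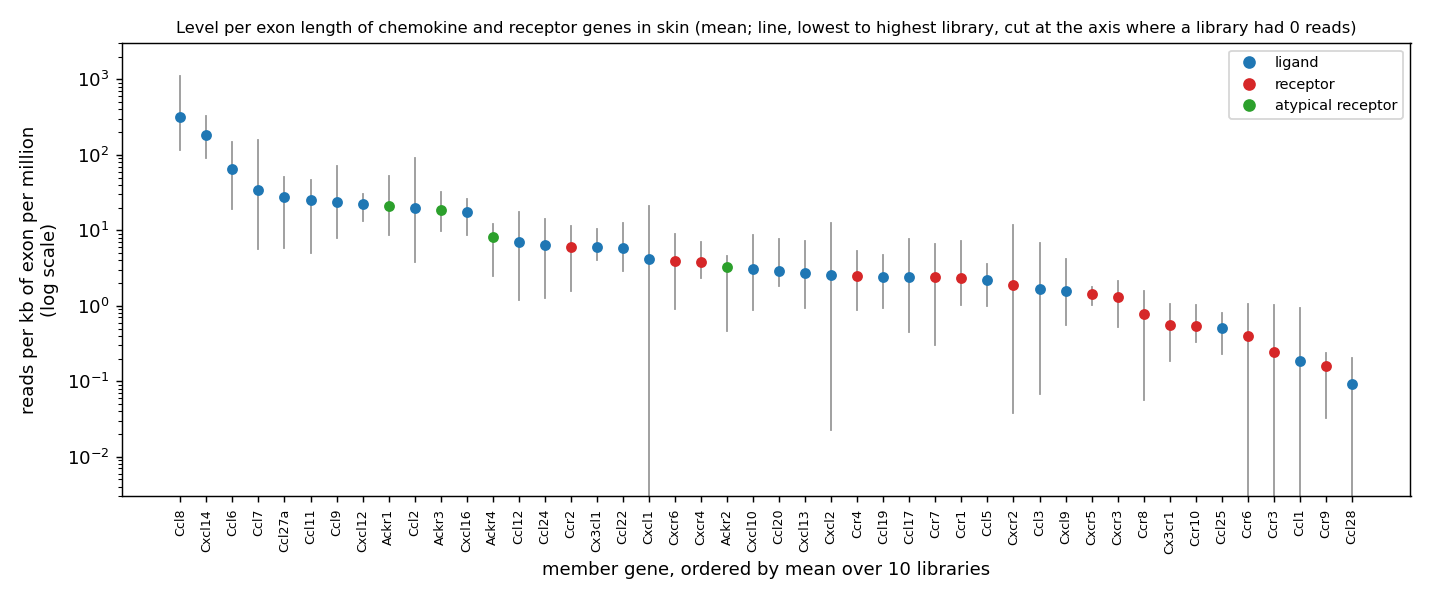
Level per exon length of 46 tested chemokine or receptor genes on a log axis, as the mean over 10 libraries, with a line from the lowest to the highest library; lines that run to the lower edge mark genes with 0 reads in a library. Ccl8 and Cxcl14 lead at 319 and 186 RPKM, and the lines of Cxcl1 and Cxcl2 span the widest ranges among the middle ranks.

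The first comparison asked how NPYtet skin differed from WT skin. No chemokine or receptor gene passed the edgeR test (0 of 47 at an adjusted p under 0.05), where the background over all 18060 genes tested was 0.00554%, that is Npy alone. DESeq2 and limma voom called 0 of the 47 as well. At an edgeR unadjusted p under 0.05, 5 of 47 (10.6%) were higher in NPYtet and 0 were lower, against a background of 1.46% higher, 2.14% lower and 3.59% in either direction. These were the eosinophil attractants Ccl24 and Ccl11, the monocyte attractant Ccl7 with the monocyte receptor Ccr2, and Ccl1, a ligand of Ccr8. With voom, Cxcl14 and Cxcr4 were lower in NPYtet at that threshold. The count of 5 became 3, 2, 3 and 2 without WT replicate 1, 2, 4 or 5, and 2 without the sex term. Single libraries left out gave 2 to 7, and leaving out NPYtet replicates 2 and 5 together, chosen after seeing the data, gave 0. The share of all genes at that threshold was not computed for these alternative runs. In 39 of 47 the log2 fold change was above 0 (background 48.8%), with a median of 0.44 where the median of all genes was -0.01. No gene had groups that did not overlap (background 0.305% in either direction, 0.0886% higher in NPYtet). The genes share the same 10 libraries and are not separate evidence. With a hair follicle score as a covariate, 21 of 47 lay above 0 and the median was -0.16, and without NPYtet replicate 2 the values were 29 of 47 and 0.13. The score is the mean over the hair follicle genes of log2 CPM, with each gene centred on its own mean.

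**Figure D2:**
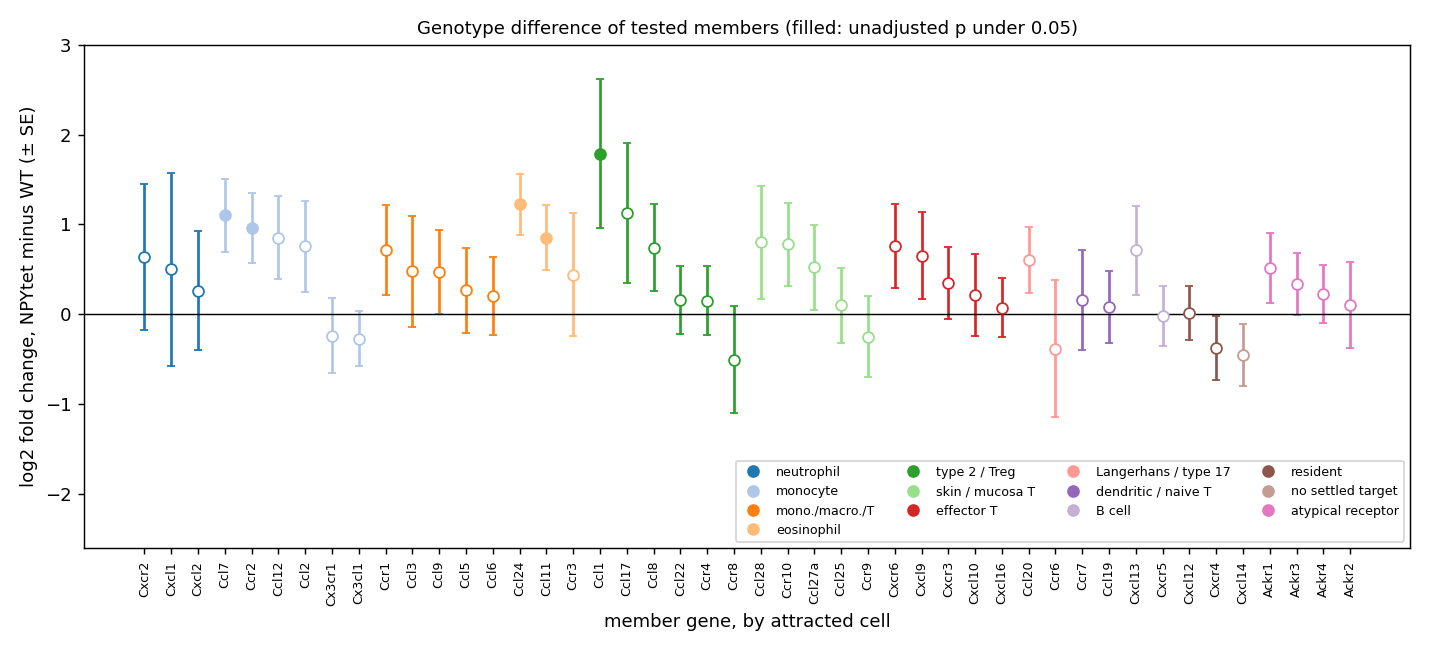
Log2 fold change of NPYtet minus WT with its SE for 46 tested genes, ordered and coloured by the cell they attract; filled points have an unadjusted p under 0.05. The 5 filled points (Ccl7, Ccr2, Ccl24, Ccl11 and Ccl1) all lie above 0, and most other bars reach or cross it.

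Ccl24, eotaxin-2, had the smallest p of the set. It stood at 5.14, 2.80, 10.4, 1.64 and 2.64 CPM in WT replicates 1 to 5 and at 18.05, 5.41, 11.7, 16.5 and 7.68 CPM in NPYtet replicates 1 to 5. Every NPYtet library lay above 4 of the 5 WT libraries, and WT replicate 3 alone fell among the NPYtet values. The mean was 4.53 ± 3.54 CPM over the WT libraries and 11.9 ± 5.45 CPM over the NPYtet ones (SD, n = 5 each). The log2 fold change was 1.22 (SE 0.34, edgeR unadjusted p = 0.00257, adjusted p = 0.948). Leaving out single libraries moved it between 1.09 and 1.52.

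Ccl11, eotaxin-1 and a product of dermal fibroblasts, lay at 23.2, 5.50, 50.2, 10.97 and 8.04 CPM in WT and at 30.2, 18.5, 48.8, 44.9 and 29.4 CPM in NPYtet. Its log2 fold change was 0.85 (SE 0.36, edgeR unadjusted p = 0.0333), and 0.59 without NPYtet replicate 5, 0.32 with voom and 0.17 without NPYtet replicates 2 and 5. The NPYtet values were more even than those of WT, whose lower values came from the 3 libraries labelled male. Ccr3, the receptor for both ligands, was near the limit of detection, with 0.178 to 1.20 CPM in WT and 0 to 3.34 CPM in NPYtet (log2 fold change 0.44, SE 0.68). Another eotaxin gene, Ccl26, had 6 reads in all and was not tested.

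Of 6 eosinophil markers, Siglecf and Ear2 were tested, and neither had an unadjusted p under 0.05 by genotype. Their list summed to 6.29 to 77.1 CPM in WT and to 5.85 to 144 CPM in NPYtet, nearly all of it Ear2, which macrophages also express. The granule genes Epx and Ear1 had 5 and 10 reads in all 10 libraries. In whole skin, more cells of a type and more RNA per cell cannot be told apart, and the part of eosinophil numbers in these values was not tested.

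Among the monocyte genes, Ccl7 (also known as MCP-3) lay at 4.47, 36.4, 6.30, 17.02 and 31.3 CPM in WT and at 12.0, 124, 9.53, 6.64 and 24.4 CPM in NPYtet. The groups overlapped throughout, and NPYtet replicate 2 stood far above every other library. The log2 fold change was 1.10 (SE 0.41, edgeR unadjusted p = 0.0166), and 0.43 without NPYtet replicate 2. Ccr2, the receptor for Ccl2, Ccl7 and Ccl12, had 32.5, 18.1, 62.9, 16.7 and 10.5 CPM in WT and 46.7, 27.8, 50.9, 61.1 and 76.2 CPM in NPYtet. Its log2 fold change was 0.96 (SE 0.39, edgeR unadjusted p = 0.0261), and 0.46 without NPYtet replicate 5 and 0.33 with voom. Ccl2 and Ccl12, which signal through the same receptor, lay at 0.76 (SE 0.50) and 0.85 (SE 0.46) on the log2 scale. The membrane-bound ligand Cx3cl1 and its receptor Cx3cr1, which mark resident and patrolling cells, lay at -0.27 (SE 0.31) and -0.24 (SE 0.42). Markers of monocytes and macrophages were split by genotype: 5 of 8 lay above 0 and 0 of 8 had an unadjusted p under 0.05.

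In the group read by type 2 helper and regulatory T cells, Ccl1 had 4 to 15 reads in the WT libraries with any and 5 to 33 reads in NPYtet. Only NPYtet replicate 5 exceeded 1 CPM (2.18 CPM), and the log2 fold change of 1.79 (SE 0.83, edgeR unadjusted p = 0.0492) became 0.44 without that library. Ccl8 lay at 76.1, 170, 112, 66.2 and 197 CPM in WT and at 197, 103, 83.5, 58.6 and 569 CPM in NPYtet. Again NPYtet replicate 5 was the highest, and the other 4 NPYtet libraries spanned the WT range (log2 fold change 0.74, SE 0.48, edgeR unadjusted p = 0.146). Of the Ccr4 ligands made by dendritic cells, Ccl17 had a log2 fold change of 1.12 (SE 0.78) at a mean of 1.25 CPM, and Ccl22 one of 0.16 (SE 0.38) at 13.8 CPM. Their receptor Ccr4 lay at 0.15 (SE 0.39) and Ccr8, the receptor for Ccl1 and Ccl8, at -0.50 (SE 0.59).

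**Figure D3:**
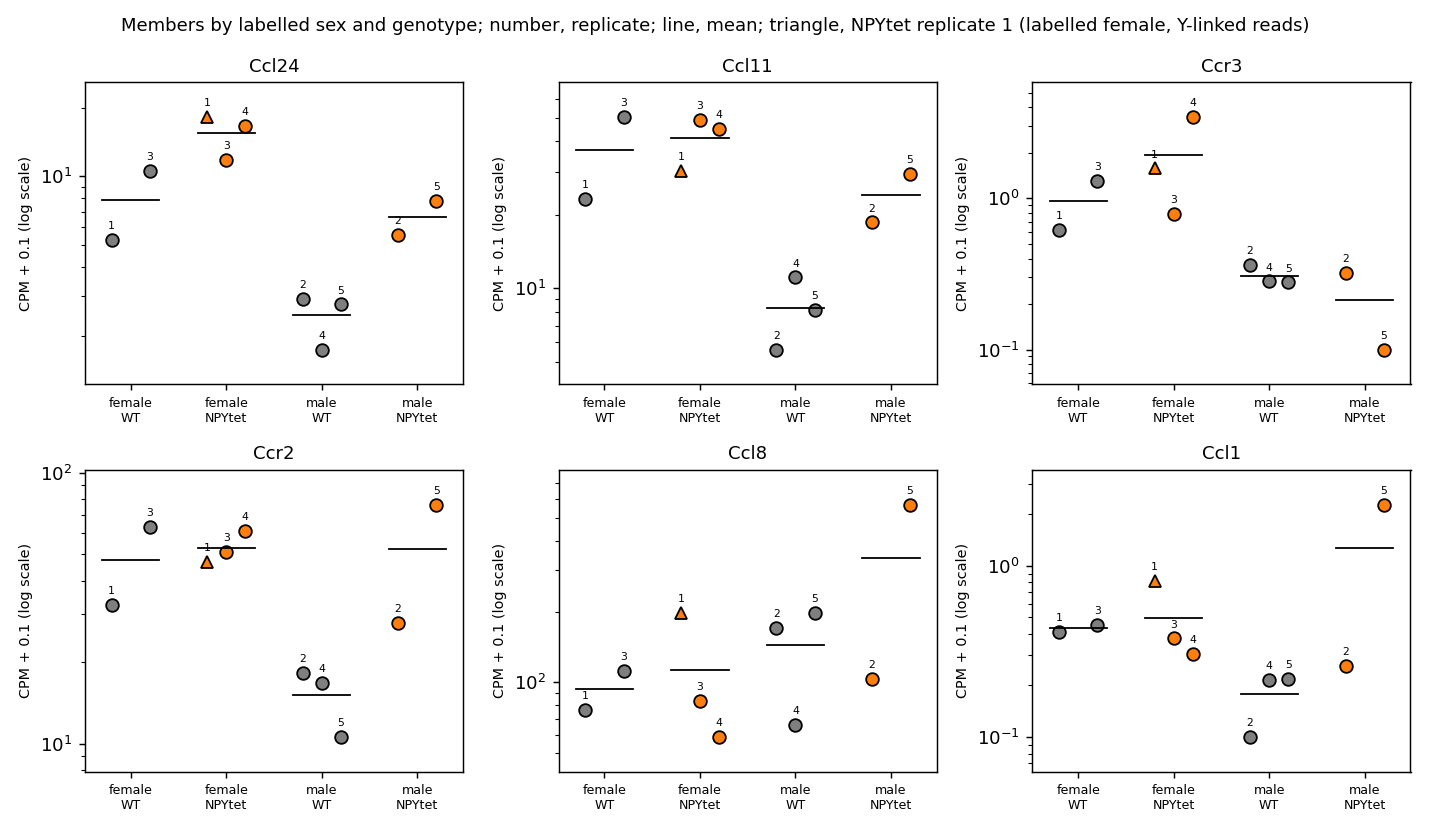
CPM plus 0.1 on a log axis for Ccl24, Ccl11, Ccr3, Ccr2, Ccl8 and Ccl1 in each library, split by labelled sex and genotype, with a line at the mean of each group and the replicate number above each point; the triangle is NPYtet replicate 1. Ccl11 in libraries labelled male lies at 5.50 to 10.97 CPM in WT and at 18.5 and 29.4 CPM in NPYtet, and NPYtet replicate 5 tops the panels of Ccl8, Ccl1 and Ccr2.

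The remaining groups held no gene with an edgeR unadjusted p under 0.05 by genotype. In the inflammatory group, Ccl3, Ccl5, Ccl6, Ccl9 and Ccr1 had log2 fold changes that ran from 0.20 for Ccl6 to 0.71 (SE 0.50) for the receptor Ccr1. All 5 tested genes of the interferon-linked group lay above 0, from 0.07 for Cxcl16 to 0.76 for Cxcr6, the receptor of Cxcl16 on resident T cells. The interferon-induced ligands Cxcl9 and Cxcl10, which call Cxcr3 cells, lay at 0.65 (SE 0.48) and 0.22 (SE 0.45). Cxcr6 lay at 0.077 without NPYtet replicate 5 and took the opposite sign (-0.04) when NPYtet replicate 5 and WT replicate 2 were left out.

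The skin-homing pair showed Ccl27a at 24.6 to 105 CPM in WT and 13.8 to 122 CPM in NPYtet (log2 fold change 0.52, SE 0.48). Its receptor Ccr10 was at 0.568 to 0.752 CPM in WT and 0.573 to 1.80 CPM in NPYtet (0.78, SE 0.46, and 0.24 with voom), so 3 of 5 NPYtet libraries were above the highest WT library. Ccl20, which draws Langerhans cell precursors and type 17 cells through Ccr6, stood at 2.63 to 3.97 CPM in WT and 3.11 to 10.8 CPM in NPYtet (0.61, SE 0.37). Only NPYtet replicates 2 and 5 exceeded WT for Ccl20, whose log2 fold change was 0.21 without NPYtet replicate 2. Cxcl13, the B cell follicle ligand, lay at 0.71 (SE 0.49) and its receptor Cxcr5 at -0.02 (SE 0.33). Without NPYtet replicate 3 Cxcl13 lay at 0.28, and with voom at 0.13.

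Of the homeostatic genes, Cxcl12 averaged 180 ± 41.6 CPM over WT libraries and 189 ± 47.7 CPM over NPYtet libraries (SD, n = 5 each). Its log2 fold change was 0.02 (SE 0.30). Cxcl14 was lower on average in NPYtet, at 234 to 339 CPM against 166 to 606 CPM in WT, and Cxcr4 was at 4.17 to 8.999 CPM against 5.08 to 12.6 CPM. Neither difference reached an edgeR unadjusted p under 0.05 (log2 fold changes -0.45, SE 0.34, and -0.38, SE 0.36). With voom both did, at -0.45 for Cxcl14 and -0.61 for Cxcr4 (voom unadjusted p = 0.0333 and 0.0197), and neither was called. The edgeR log2 fold change of Cxcl14 was -0.22 without WT replicate 2. That of Cxcr4 was -0.18 without WT replicate 1 and likewise without WT replicate 5. The 4 atypical receptors lay between 0.11 for Ackr2, the scavenger of inflammatory CC ligands, and 0.52 for Ackr1, with SEs of 0.33 to 0.48. Without NPYtet replicate 2, Ackr1 lay at 0.038.

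The labels give sex as another condition, and more of these genes were called by it than by genotype. By labelled sex 10 of 47 genes (21.3%) passed the edgeR test at an adjusted p under 0.05, against a background of 2.48%. The log2 fold change of male minus female was above 0 in 25 of 47 (background 46.2%). Of the called genes, 7 were higher in libraries labelled male (background 1.36%) and 3 were lower (background 1.12%). At an unadjusted p under 0.05 there were 22 of 47 (46.8%, background 24.6%), and in 7 (14.9%, background 8.44%) the groups did not overlap. The count rests on few libraries: leaving out single libraries gave 3 to 13 calls, with 3 without WT replicate 3 or NPYtet replicate 3 or 4, 5 without replicate 2 of either genotype and 6 without WT replicate 5. In the same way, leaving out NPYtet replicate 1 gave 9, and leaving out NPYtet replicates 2 and 5 together gave 1 (Cxcl2). With the hair follicle score as a covariate it was also 1 (Cxcl2). Cxcl2, Ccl7 and Ccl3 were called whichever single library was left out. Cxcl2 had 2 to 6 reads in each library labelled female, so it passed the count filter only through those labelled male. That it was tested at all thus depended on the libraries where it was high. Libraries labelled male also had more of the hair follicle genes on average (all 13 lay above 0, 0 of 13 called) and higher Krt14 (log2 fold change 2.79, SE 0.54, edgeR adjusted p = 0.0197), and the part of tissue makeup in the sex difference was not tested.

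The neutrophil genes Cxcl2, Cxcr2 and Cxcl1 had the largest log2 fold changes by labelled sex of the 47. Cxcl2 (MIP-2), a ligand of Cxcr2 made by activated macrophages and keratinocytes, had 2 to 6 reads in each library labelled female, or 0.103, 0.141, 0.123, 0.0461 and 0.0687 CPM in WT replicates 1 and 3 and NPYtet replicates 1, 3 and 4. In the libraries labelled male it stood at 12.5, 5.89 and 6.68 CPM in WT replicates 2, 4 and 5 and at 26.2 and 1.32 CPM in NPYtet replicates 2 and 5. The groups did not overlap, and NPYtet replicate 1 sat with the other libraries labelled female in spite of its Y-linked reads. The log2 fold change of male minus female was 6.74 (SE 0.77, edgeR adjusted p = 0.00218), and 6.86 without NPYtet replicate 1.

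Cxcl1 (KC), another Cxcr2 ligand, ran from 0.207 to 0.941 CPM in libraries labelled female and read 12.6, 3.82, 17.8, 40.0 and 0 CPM in WT replicates 2, 4 and 5 and NPYtet replicates 2 and 5. In 4 of 5 libraries labelled male it was above every library labelled female, while NPYtet replicate 5 had 0 reads, which allows up to 3 reads or 0.199 CPM, a limit that covers counting error only. The log2 fold change was 4.65 (SE 1.22, edgeR adjusted p = 0.0791), short of the threshold. Cxcr2, their receptor on neutrophils, had 0.115 to 0.516 CPM in libraries labelled female and 3.33, 9.83, 5.94, 35.6 and 0.662 CPM in those labelled male (log2 fold change 5.08, SE 0.92, edgeR adjusted p = 0.0174). The 3 other neutrophil genes with a like pattern had too few reads in too few libraries for the test. Cxcl3 had 90, 45, 60 and 323 reads in WT replicates 2, 4 and 5 and NPYtet replicate 2 and at most 6 elsewhere. Cxcl5 had 191 of its 235 reads in NPYtet replicate 2, and Cxcr1 had 120 reads, all from the same 4 libraries labelled male.

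The 7 listed neutrophil markers summed to 3.20 to 7.75 CPM in libraries labelled female and to 7.81 to 45.8 CPM in those labelled male. Of the 4 tested, 2, Retnlg and Mmp8, were called higher in libraries labelled male (log2 fold changes 3.05 and 3.34, edgeR adjusted p = 0.0311 and 0.0170). Csf3r and Mpo were not called (edgeR adjusted p = 0.228 and 0.0642), and Camp and Ngp had too few reads for a test. In NPYtet replicate 5 Mpo alone stood at 13.7 CPM, while Csf3r, the most read marker, was at 0.199 CPM, its lowest library. The defining marker Ly6g had 22 reads in all and 0 reads in 6 of 10 libraries. WT replicate 2 and NPYtet replicate 2 had the highest marker sums (30.4 and 45.8 CPM). The part of neutrophil numbers in the difference was not tested.

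The promoters of the neutrophil attractants on chromosome 5 are shown because Cxcl1, Cxcl2 and Cxcl3 were high in the same libraries, while their neighbour Cxcl15, or lungkine, was read in others. Each line gives the 250 bases before the RefSeq start (GRCm38.p6), 5′ to 3′, with capitals on the letters GGGAATTTCCC, a match to the NF-kB consensus on both strands.

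Cxcl1 (chr5:90890995-90891244, + strand): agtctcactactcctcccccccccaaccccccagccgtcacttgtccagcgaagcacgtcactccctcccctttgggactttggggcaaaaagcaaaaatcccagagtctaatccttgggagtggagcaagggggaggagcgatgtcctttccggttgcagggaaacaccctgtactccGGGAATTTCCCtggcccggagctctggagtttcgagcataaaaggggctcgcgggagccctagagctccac

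Cxcl2 (chr5:90903649-90903898, + strand): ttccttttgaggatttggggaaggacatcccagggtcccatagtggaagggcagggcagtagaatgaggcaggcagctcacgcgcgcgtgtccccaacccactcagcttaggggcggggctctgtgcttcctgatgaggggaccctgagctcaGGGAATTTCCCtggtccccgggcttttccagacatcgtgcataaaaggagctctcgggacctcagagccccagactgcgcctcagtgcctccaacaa

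Cxcl3 (chr5:90785851-90786100, + strand): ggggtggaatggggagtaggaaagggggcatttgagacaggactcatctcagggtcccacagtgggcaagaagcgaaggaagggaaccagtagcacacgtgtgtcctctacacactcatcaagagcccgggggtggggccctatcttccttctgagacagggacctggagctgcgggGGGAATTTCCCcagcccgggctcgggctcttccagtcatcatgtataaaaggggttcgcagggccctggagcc

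Cxcl15 (chr5:90794284-90794533, + strand): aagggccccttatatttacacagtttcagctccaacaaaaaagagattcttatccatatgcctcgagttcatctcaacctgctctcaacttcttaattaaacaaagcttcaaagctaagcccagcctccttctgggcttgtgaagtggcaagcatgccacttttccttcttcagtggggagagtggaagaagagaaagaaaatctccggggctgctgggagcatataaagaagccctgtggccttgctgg

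These 11 letters begin 71, 97 and 73 bases before the start in Cxcl1, Cxcl2 and Cxcl3, and Cxcl15 has no match to the NF-kB consensus in this window. The letters were read off the promoters of Cxcl1, Cxcl2 and Cxcl3, related neighbours, so their presence in these 3 was fixed in advance. They stand in 12 of 32851 promoters of that length (0.037%). Among the 44 chemokine and receptor genes with a promoter entry they stand in these 3 only. This share is a description only. Cxcl5 of the same cluster, and Ccl2, Ccl7, Ccl11, Ccl24 and Ccr7, are not among the 44. The NF-kB consensus was matched in 11 of the 44, among them Ccl20, Ccl1, Cxcl10 and Ccl9, and in 7.25% of all promoters. A gene counted as matched if any of its promoter entries matched (51 entries for the 44 genes). The shares of all promoters are per entry, so they are not on the same scale. The STAT6 motif was matched in 1 of 44 (Ccl17, 5.85% of all promoters), and the interferon response motif in 3 (Cxcl10, Cxcl14 and Ccl19, 2.98%). These motifs were sought on both strands. A match is a string of letters and does not show that a factor binds there.

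Cxcl15 was counted in few libraries. It had 42 and 56 reads in NPYtet replicates 3 and 4, 1 read in WT replicate 3 and 0 in the other 7 libraries, so NPYtet replicate 1 was at 0 as well. It was not among the genes tested. When the filter on low counts was dropped its log2 fold change by genotype was 5.07 (SE 1.27, edgeR adjusted p = 0.00719), a fit in which 409 genes were called by genotype in place of 1. By sex the same fit gave -5.97 (SE 1.42, edgeR adjusted p = 0.00114). Both libraries with most of its reads are NPYtet and labelled female. The WT libraries labelled female had 0 and 1 reads, and NPYtet replicates 2 and 5, labelled male, had 0. Neither genotype nor labelled sex alone therefore describes its reads, which rest on 2 libraries. It was chosen for mention after its values were seen.

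Of the monocyte ligands, Ccl2, Ccl7 and Ccl12 were called higher in libraries labelled male, and Cx3cl1 was not called (log2 fold change 0.14, SE 0.31). Ccl2 (MCP-1) read 4.34 and 7.12 CPM in WT replicates 1 and 3 and 9.52, 7.08 and 5.47 CPM in NPYtet replicates 1, 3 and 4, against 27.7, 12.4, 37.3, 104 and 9.79 CPM in WT replicates 2, 4 and 5 and NPYtet replicates 2 and 5. The groups did not overlap, but NPYtet replicates 1 and 5 nearly met at 9.52 and 9.79 CPM. Its log2 fold change was 2.56 (SE 0.53, edgeR adjusted p = 0.0259), and 1.56 with an adjusted p of 0.0924 without NPYtet replicate 2. Ccl7 did not overlap either, with 4.47 to 12.0 CPM in libraries labelled female and 17.02 to 124 CPM in those labelled male (log2 fold change 2.69, SE 0.43, edgeR adjusted p = 0.00751). Ccl12 (MCP-5) was called higher in libraries labelled male too (log2 fold change 2.56, SE 0.48, edgeR adjusted p = 0.0174), with NPYtet replicate 1 (2.51 CPM) above WT replicate 4 (1.77 CPM).

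Their receptor Ccr2 lay at 32.5 to 62.9 CPM in libraries labelled female and at 10.5 to 76.2 CPM in those labelled male, and its difference by sex was not called (log2 fold change -0.84, SE 0.39, edgeR adjusted p = 0.197). Cx3cr1 was not called either (log2 fold change -1.53, SE 0.42, edgeR adjusted p = 0.0693). Of the 8 markers of monocytes and macrophages, Ly6c2, which marks classical monocytes, was called higher in libraries labelled male (2.995, SE 0.64, edgeR adjusted p = 0.0291). The list as a whole summed to 393 to 719 CPM in libraries labelled female and to 244 to 635 CPM in those labelled male.

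Ccl3 (MIP-1 alpha), a ligand of Ccr1, was at 0.0516 to 0.231 CPM in libraries labelled female and at 3.49, 1.52, 1.19, 5.25 and 0.529 CPM in WT replicates 2, 4 and 5 and NPYtet replicates 2 and 5. The groups did not overlap (log2 fold change 4.09, SE 0.66, edgeR adjusted p = 0.00866). Its neighbour Ccl4 had 160, 86, 85 and 241 reads in WT replicates 2, 4 and 5 and NPYtet replicate 2 and at most 8 elsewhere, and was not tested. Ccr7, the receptor that takes dendritic cells to lymph nodes, had 0.594 to 2.88 CPM in libraries labelled female and 2.63 to 13.2 CPM in those labelled male (log2 fold change 2.34, SE 0.57, edgeR adjusted p = 0.0457). Ccl19, a ligand of Ccr7, did not overlap between the labelled sexes (0.801 to 1.75 against 2.30 to 4.13 CPM) and was not called (1.16, SE 0.40, edgeR adjusted p = 0.1097).

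**Figure D4:**
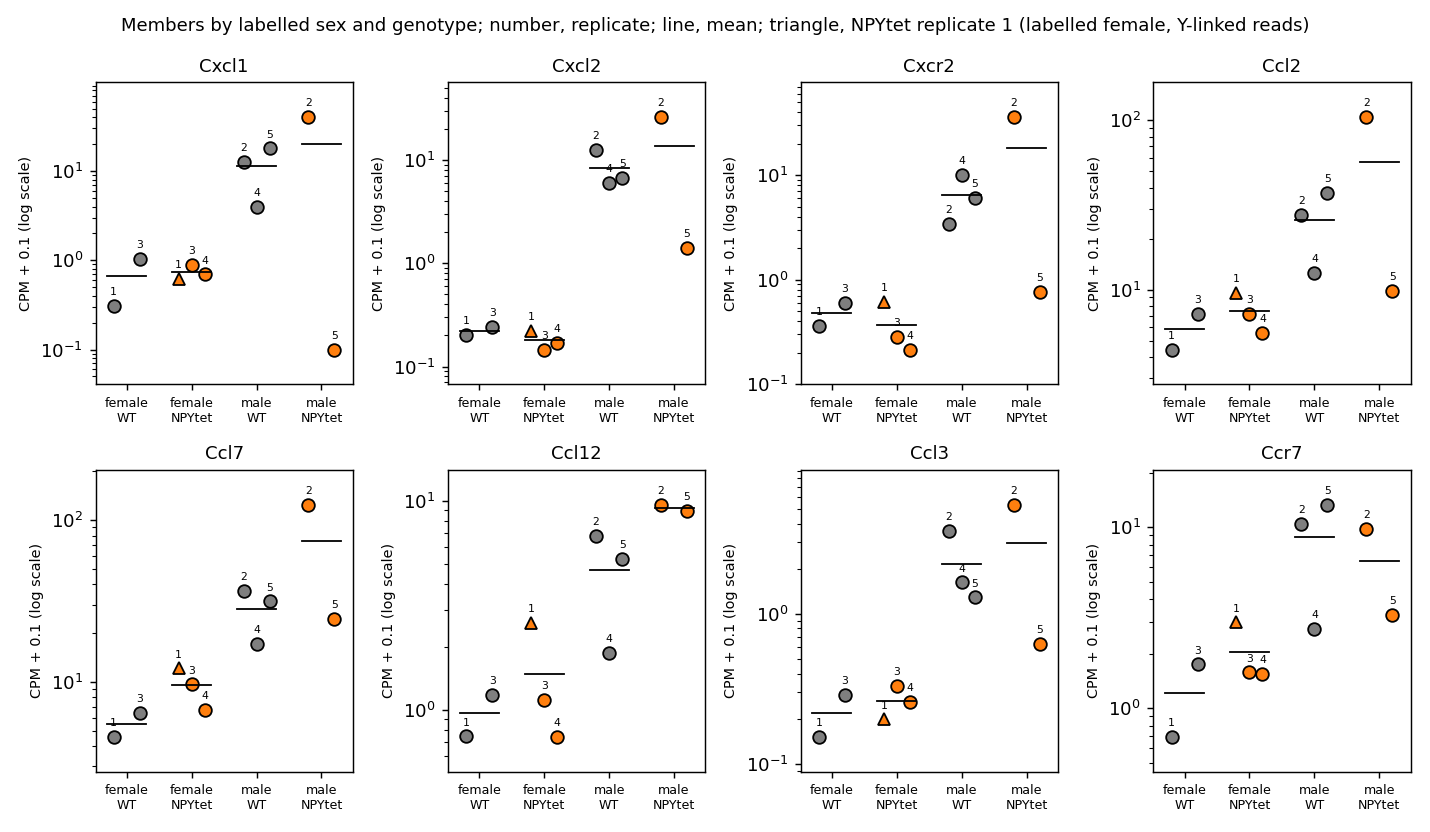
CPM plus 0.1 on a log axis for Cxcl1, Cxcl2, Cxcr2, Ccl2, Ccl7, Ccl12, Ccl3 and Ccr7 in each library, split by labelled sex and genotype, with a line at each group mean; the triangle is NPYtet replicate 1. NPYtet replicate 2 is the highest library in the panels of Cxcl1, Cxcl2, Cxcr2, Ccl2, Ccl7, Ccl12 and Ccl3, and NPYtet replicate 5 is the lowest library labelled male in those of Cxcl1, Cxcl2, Cxcr2, Ccl2 and Ccl3.

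Eosinophil genes took the opposite direction, and all 3 tested were called lower in libraries labelled male. Ccl24 was at 5.14 to 18.05 CPM in libraries labelled female and 1.64 to 7.68 CPM in those labelled male (log2 fold change -1.48, SE 0.34, edgeR adjusted p = 0.0361). Ccl11 was at 23.2 to 50.2 CPM against 5.50 to 29.4 CPM (-1.48, SE 0.37, edgeR adjusted p = 0.0498). Ccr3 did not overlap, with 0.516, 1.20, 1.48, 0.692 and 3.34 CPM in WT replicates 1 and 3 and NPYtet replicates 1, 3 and 4 and at most 0.264 CPM in those labelled male (-2.83, SE 0.69, edgeR adjusted p = 0.0465). Without NPYtet replicate 1 the adjusted p was 0.0573 for Ccl24 and 0.0514 for Ccr3. None of the 3 was called without WT replicate 2, 3 or 5 or without NPYtet replicate 2, 3 or 4. The marker Siglecf moved the same way (-2.71, SE 0.56, edgeR adjusted p = 0.0251), at 0.620 to 2.73 CPM in libraries labelled female and 0.0662 to 0.596 CPM in those labelled male. The 6 markers summed to 21.2 to 81.9 CPM against 5.85 to 144 CPM, and their part in the result was not tested.

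A further 12 genes had an unadjusted p under 0.05 by sex without passing adjustment. Higher in libraries labelled male on this measure were Cxcl1, Cxcl10, Ccl19, Ccl8 and Ackr1, with log2 fold changes from 0.97 to 4.65. Lower were Cx3cr1, Ccr6, Ccr8, Ccr4, Cxcr3, Ackr4 and Ccr2, from -1.74 for Ccr6 to -0.84 for Ccr2. Of these 7, 6 are classical receptors, 4 of them carried by T cells (Ccr4, Ccr6, Ccr8 and Cxcr3). All 8 T cell markers had a log2 fold change below 0, with 0 called, where 46.2% of all genes lay above 0. They summed to 36.5 to 83.6 CPM in libraries labelled female and to 26.2 to 65.1 CPM in those labelled male. This was not particular to T cells: 0 of 4 dendritic epidermal T cell, 0 of 5 B cell, 0 of 5 dendritic cell and 0 of 2 eosinophil markers lay above 0. By contrast 4 of 4 neutrophil and 5 of 8 monocyte and macrophage markers did. The part of T cell numbers in these values was not tested.

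**Figure D5:**
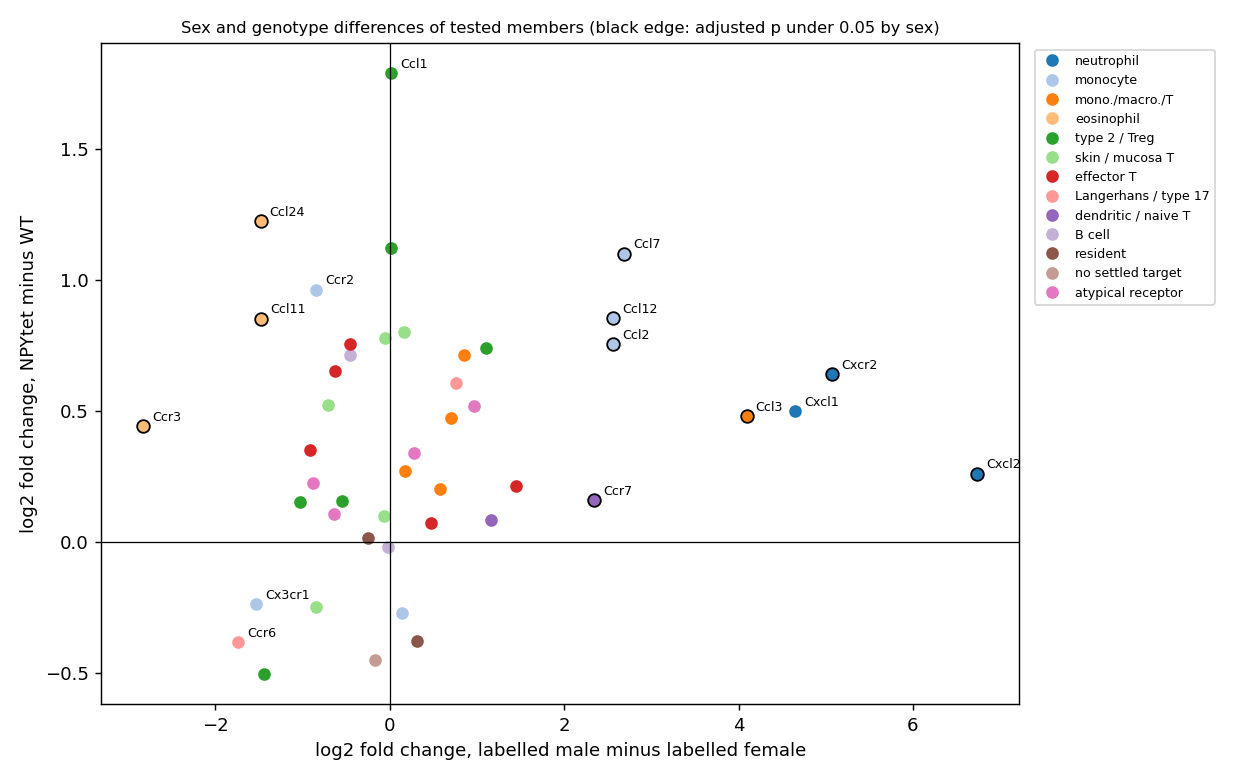
Log2 fold change by labelled sex (horizontal) against that by genotype (vertical) for 46 tested genes, from the same fit to the same 10 libraries, coloured by attracted cell; a black edge marks an adjusted p under 0.05 by sex. Cxcl2, Cxcr2 and Ccl3 lie far to the right at 6.74, 5.08 and 4.09, and Ccr3, Ccl24 and Ccl11 lie to the left at -2.83, -1.48 and -1.48.

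Whether the genotype difference depended on labelled sex was tested in a model of the 4 combinations. No gene passed adjustment by edgeR (background 0%), and 2 of 47 (4.26%) had an unadjusted p under 0.05 against a background of 1.63%. They were Ccr2, with genotype log2 fold changes of 0.15 in libraries labelled female and 1.78 in those labelled male (difference 1.63, SE 0.68, unadjusted p = 0.0320), and Ccl1, with 0.26 and 3.61 (difference 3.35, SE 1.45, unadjusted p = 0.0382). Ccl11 came next, with 0.17 and 1.55 (difference 1.38, SE 0.67, unadjusted p = 0.0589). In libraries labelled male, Ccl11 was 5.50, 10.97 and 8.04 CPM in WT and 18.5 and 29.4 CPM in NPYtet. The NPYtet libraries labelled male are 2, of which replicate 5 has the highest mitochondrial share. Without it the differences were 0.71 for Ccr2, 0.50 for Ccl1 and 0.99 for Ccl11 (edgeR unadjusted p = 0.278, 0.720 and 0.188). Without NPYtet replicate 1, labelled female but with Y-linked reads, they were 1.52, 4.04 and 1.17 (edgeR unadjusted p = 0.0691, 0.0217 and 0.138). Both alternatives were chosen after seeing the data.

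Among genes that act around the chemokine system, by genotype, 0 of 45 tested genes in 4 lists had an unadjusted p under 0.05, where the background was 3.59%. The lists were related chemoattractants (11 tested), receptor signalling (16), inducers with NF-kB feedback (11) and proteases or carriers (7). The smallest p values by the edgeR test were those of Ccrl2, a chemerin-binding receptor (log2 fold change 0.67), Pik3cg, a kinase downstream of chemokine receptors (0.55), and Il1a, an epidermal alarm cytokine (0.78). By labelled sex 5 of the 45 were called by edgeR, all higher in libraries labelled male. The background was 2.48% called and 1.36% called higher in those libraries. The 5 genes were the cytokines Il6 (4.49, adjusted p = 0.00751) and Il1b (2.71, adjusted p = 0.0231), the cytokine feedback gene Socs3 (2.66, adjusted p = 0.0287), the formyl peptide receptor Fpr2 (2.96, adjusted p = 0.0107) and the collagenase Mmp8, which is also on the neutrophil list. NPYtet replicate 1, with Y-linked reads, was counted as female in these calls.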

How the data were processed

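Poly(A) RNA of whole skin was measured in 10 libraries, 5 WT and 5 NPYtet, and group, replicate and sex were taken from the labels. The deposited files hold raw read counts, 1 row per Ensembl ID. The submitters' processing notes name mm10 as the build, STAR 2.5.2 and Trimmomatic 0.36 among the tools, and bcl2fastq, FastQC 0.11.8 and DESeq2 1.30.1 beside them. Per the labels' protocols the library kit was directional. Neither the strand that was counted nor the release of the authors' annotation is stated in the sources used here. Of 49671 IDs, 49412 matched the GENCODE M21 primary assembly annotation (GRCm38) and 259 did not.

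The counts were fitted in R 4.3.3 with edgeR 4.0.16 (filterByExpr on genotype, minimum count 10, minimum total 15; TMM scaling; robust quasi-likelihood test on labelled sex and genotype). P-values were adjusted by Benjamini and Hochberg over all 18060 genes tested, with a threshold of 0.05. The genotype difference within each sex came from a model of the 4 combinations. Signs are NPYtet minus WT, or male minus female, and the sex label was used as given for every library. CPM uses the scaled library size, and RPKM divides it by merged exon length. Promoters came from RefSeq (44 genes matched). Tested on simulated counts of 18060 genes for the genotype comparison, the fit found 5 of 50 genes with a 2-fold change. It found 35 of 50 at 4-fold, and all 50 at 8-fold as at 32-fold, and it made 2 false calls. The simulated spread followed the trend over all genes, without a sex or hair stage effect, and only genes of mean CPM at least 1 were changed. These rates therefore do not cover genes under 1 CPM or genes that vary more than the trend.

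The genes, groups and lists were chosen with earlier results of these data known. Genes were named if they had an unadjusted p under 0.05 by genotype or sex, the highest level per length or the smallest genotype p in their group, or groups that did not overlap. Others, such as Cxcl9, Ccl17, Ccl22, Cx3cl1, Ackr2 and Ackr3, were added after their values were seen, to complete groups and ligand and receptor pairs. No pair of libraries of 1 group agreed within sampling noise. Alternatives were DESeq2 1.42.0, voom of limma 3.58.1 with quality weights, other scalings, looser and stricter filters (minimum count 50), no sex term, a replicate block, a hair follicle score as covariate and leaving out libraries. Libraries with the same replicate number were checked for shared deviations, and the numbers did not pair them. The counts cover all 47 tested genes, and 1 of them and 1 promoter motif are not reported here.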

Additional observations from a re-analysis of the deposited data

Results flagged for a closer look

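In 16 of 72 groups of 5 libraries (36 named genes in each genotype), 1 library's gap to its neighbour exceeded 0.71 of the range of its group. That cut-off marks about 1 in 20 groups only where values are normally distributed. It was applied to unlogged CPM, and each group mixes libraries labelled female and male, so that rate is no baseline for the 16 groups. Genes of 1 library share its makeup, so these are not separate events. Of the 16, 12 were NPYtet replicate 2 as the highest NPYtet library. Its neutrophil genes stood at 40.0 CPM for Cxcl1 (next 0.784), 26.2 CPM for Cxcl2 (next 1.32) and 35.6 CPM for Cxcr2 (next 0.662). Its monocyte and inflammatory genes stood at 104 CPM for Ccl2 (next 9.79), 124 CPM for Ccl7 (next 24.4), 5.25 CPM for Ccl3 (next 0.529), 263.0 CPM for Ccl6 (next 113) and 20.6 CPM for Ccr1 (next 6.76). The others were Ackr1 at 72.6 CPM (next 31.9), Ccl20 at 10.8 CPM (next 4.83), Cxcl10 at 19.5 CPM (next 5.88) and Ccr7 at 9.64 CPM (next 3.18). The same library had the highest sum of the neutrophil markers, 45.8 CPM, and their part in these values was not tested.

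NPYtet replicate 5, the library with the highest mitochondrial share, was the highest for Ccl8 at 569 CPM (next 197) and for Ccl1 at 2.18 CPM (next 0.713). WT replicate 2 was the highest WT library for Ccr1, at 10.9 CPM (next 4.31). NPYtet replicate 4 was the lowest for Cxcl16, at 39.9 CPM, where the other NPYtet libraries reached up to 56.4 CPM.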

How the results depend on the processing

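No chemokine or receptor gene of those tested was called by genotype under any alternative run, a statement that covers the 47 genes that passed the count filter (36 under the stricter one). Cxcl15, which did not pass it, was called when the filter was dropped. Their median log2 fold change by genotype was 0.44, and 0.073 with voom and -0.16 with the hair follicle score. The number above 0 was 39, and 21 with that score. The number with an unadjusted p under 0.05 by genotype was 5. It was 9 without the filter, 2 without the sex term, 2 with the replicate block, 3 with the hair score, 8 without NPYtet replicate 5 and WT replicate 2, and 2 to 7 on leaving out single libraries. No share of all genes at that threshold was computed for these runs, so these counts have no background beside them. Over all genes, 1 was called by genotype, and 35 with DESeq2, 2 with voom, 409 without the filter, 1 to 8 on leaving out single libraries and 0 without NPYtet replicates 5 and 1 and WT replicate 2. Signs by genotype reversed for Ackr1 (-0.17 with the hair score) and for Ccl1 (-0.13 with voom, -0.16 with those 3 libraries out). Ccr7 reversed to -0.61 without the sex term, -0.055 with the replicate block and -1.09 with the hair score, and ran from -0.19 to 0.56 on leaving out single libraries. Cxcr2 reversed to -0.031 with the block and -0.28 with the hair score, and ran from -1.43 (without NPYtet replicate 2) to 1.04. Cxcr6 reversed to -0.14 with voom, -0.036 without NPYtet replicate 5 and WT replicate 2 and -0.094 without NPYtet replicate 1 as well.

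By labelled sex, 10 genes of the set were called, and 22 with voom, 4 with the stricter filter, 0 with the replicate block, 1 with the hair score and 3 to 13 on leaving out single libraries. At an unadjusted p under 0.05 there were 22, and 14 with the stricter filter, 5 with the block, 14 with the hair score and 16 to 24 on leaving out single libraries. Here too no share of all genes at that threshold was computed for the alternatives. Over all genes 448 were called by sex, and 2316 with DESeq2, 5648 with voom, 2380 without the filter, 0 with the block, 22 with the hair score, 949 with the 3 libraries out and 58 to 2725 on leaving out single libraries. Leaving out NPYtet replicates 2 and 5 together was chosen after seeing the data: it gave 0 genotype calls, 0 genes of the set with an unadjusted p under 0.05 by genotype, 1 called by sex, 17 sex calls over all genes and -0.47 for Cxcr2 by genotype. The cause of these changes was not tested, except that leaving out libraries or filtering more strictly leaves fewer samples or genes. Same-numbered libraries correlated at -0.256 to 0.644 in their deviations, 2 of 5 pairs over 0.1, and 0 of 5 correlated best with their own number.

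Counts under 3 reads cannot be told from 0, which limits genes such as Ccr3, Ccl1, Cxcl1, Cxcl2, Ccl3, Ccr6 and Ccr8 in single libraries.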
